A study of Mus musculus with 19 samples.

Results

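The genes of the translation initiation and elongation factors (eIFs and eEFs) were followed over the day in ribosome-bound mRNA of mouse spinal cord cholinergic neurons. They were chosen by symbol, as every gene whose name begins with Eif and a digit from 1 to 6 or with Eef and 1 or 2, leaving out pseudogenes, antisense genes and the Eif2ak kinases. This gave 69 of the 50559 genes in the table. Of these, 63 had enough counts to be tested among 15572 genes. The 6 others were Eef1akmt3, Eef1akmt4, Eif2c5, Eif4a3l1, Eif4a3l2 and Eif4e1b, of which Eif2c5 had no count in any library. The symbol rule also takes in Eef1akmt4-ece2, a read-through of neighbouring genes that was at 0 in 12 of the 18 immunoprecipitates, and Eif3j1 and Eif3j2, which are near-identical copies whose reads cannot be divided with certainty.

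Initiation factors bring the small ribosomal subunit, the initiator tRNA and the mRNA together. eIF2 carries the tRNA and is recharged with GTP by eIF2B, eIF3 is the large scaffold on the small subunit, and eIF4F (the cap-binding eIF4E, the scaffold eIF4G and the helicase eIF4A) opens the 5′ end of the mRNA. eIF1, eIF1A, eIF5 and eIF5B set the start codon and join the subunits, after which eEF1 delivers aminoacyl-tRNA and eEF2 moves the ribosome along by a codon. Neurons and muscle cells are known for using the eEF1A2 form of the delivering factor in place of the widespread eEF1A1, and motor neurons, the large cholinergic cells of the ventral horn, support a high rate of protein synthesis.

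The mice were wild-type C57BL/6J males aged 10 weeks, of the genotype ChAT-Cre;RiboTag fx/+, held in 12 h of light and 12 h of dark. RiboTag adds a hemagglutinin tag to a ribosomal protein wherever Cre has acted, here in cells that express choline acetyltransferase, so the tag marks all cholinergic cells of the cord and not motor neurons alone. Spinal cords were collected at Zeitgeber time (ZT, hours after lights on) 0, 4, 8, 12, 16 and 20, with 3 biological replicates each, and tagged ribosomes were immunoprecipitated, which gave 18 libraries. One further library was made from pooled input, that is homogenate before precipitation. All groups carried the same 2 alleles, and libraries without Cre or without the tag were not analysed here.

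Total counts lay between 6302140 and 22406850 in the immunoprecipitates and were 15239783 in the input, of which the 69 genes took 1.22% to 1.31% and 1.07%. The cell type was checked against marker lists. All 7 cholinergic markers were detected and 6 of them were enriched over the input, whereas the markers of the 7 other cell types examined (oligodendrocytes, astrocytes, microglia, inhibitory neurons, excitatory neurons, endothelial cells and erythrocytes) were depleted, apart from 1 of the 4 for inhibitory neurons. Oligodendrocyte markers were still present, with a summed level of 1521 to 2917 CPM (counts scaled to library size, with TMM factors) against 21751 CPM in the input. Libraries of 1 time point were not alike. Among the ZT8 libraries, replicate 2 deviated the most and replicate 1 the least in the factors called below. ZT16 replicate 3 stood apart from the other ZT16 libraries. Both points touch the results below, so values are also given without these libraries.

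The abundance of the factors was described first. Levels of different genes were compared per kb of the longest annotated transcript, which 64 of the 69 genes had. Eef1a2 (chromosome 2, 181141758 to 181157015, GRCm38.p6), the eEF1A form of neurons and muscle, stood first with 1453 ± 174 CPM per kb (SD, n = 18). It was followed by Eif5a with 380 ± 23.7, Eif4a2 with 326 ± 70.5, Eef2 with 309 ± 69.6 and Eif3k with 307 ± 62.9 CPM per kb. The last 3 of these differed from each other by less than the spread over the libraries. Eef1g, Eif4h, Eif1, Eif1b and Eef1a1 came next, from 271 ± 26.6 down to 230 ± 15.6 CPM per kb, and the last 3 of them likewise lay within each other's spread. In the pooled input Eef1a1 was first with 729 CPM per kb and Eef1a2 second with 500 CPM per kb.

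The pooled input showed which of these mRNAs were more abundant on the tagged ribosomes than in the whole cord. With a single input library there was no test. Enrichment or depletion was called from a mean that differed by 2-fold or more, with every one of the 18 immunoprecipitates on that side of the input. Among the 64 factor genes compared, 21 (32.8%) were enriched, against 14.1% of all 16828 genes compared, and 3 (4.69%) were depleted, against 25.3% of all genes. The median log2 ratio of the factors was 0.42, against -0.13 for all genes.

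Eef1a1 (chromosome 9, 78478453 to 78481724) and Eef1a2 lay on opposite sides of the input. Over the 18 immunoprecipitates Eef1a2 ranged from 2378 to 3530 CPM, and the input held 1042 CPM, with a 95% Poisson interval of 1027 to 1057 that covers counting error only. The mean was 2.91-fold higher. Eef1a1 ranged from 350 to 457 CPM against 1307 CPM in the input (1291 to 1324), a 3.17-fold lower mean. No library of either gene reached the input from its side. Per kb, Eef1a2 mRNA was 6.32 ± 0.61 times as abundant as Eef1a1 mRNA in the immunoprecipitates and 0.686 times as abundant in the input.

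Other pairs of copies also stood in another ratio than in the input. Eif1b was 0.986 ± 0.129 times as abundant per kb as Eif1 in the immunoprecipitates (0.851 to 1.35) and 0.439 times in the input. Eif5a was 15.2 ± 2.7 times as abundant as Eif5a2 (8.30 to 19.2), against 6.63 times in the input. For both pairs every immunoprecipitate lay above the input. The scaffold Eif4g1 was 2.40 ± 0.25 times as abundant as Eif4g3, against 1.78 times. How RSEM divides reads between such copies can move these ratios.

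The 5 highest ratios among the 58 factor genes with at least 100 input counts were those of Eif2b4, Eif3k, Eif5b, Eif6 and Eef1a2. Eif2b4, a regulatory subunit of the exchange factor eIF2B, was at 108 ± 16.3 CPM against 26.4 CPM in the input, a log2 ratio of 2.04. Eif3k, a peripheral eIF3 subunit, had a log2 ratio of 1.81, Eif5b, the GTPase of subunit joining, 1.63, and Eif6, which keeps the large subunit from joining early, 1.55. The enriched genes included 6 of the 14 eIF3 genes tested (Eif3b, Eif3d, Eif3g, Eif3i, Eif3k and Eif3m) and 4 of 6 genes of the eEF1 group. They also included 3 of 11 genes of the eIF2 and eIF2B group, and 2 of 11 genes of the eIF4 group, Eif4g1 and Eif4h. Groups go by symbol, so that of eEF1 takes in Eef1e1 and that of eIF2 and eIF2B takes in Eif2a and Eif2d. Scaling by library totals lowered the number of enriched factors to 9, so the number past the 2-fold cutoff rests on the scaling. The median log2 ratio went down to 0.12 for the factors and to -0.42 for all genes. The factors thus stayed above all genes by their median. The number of all genes enriched under that scaling is not given here.

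**Figure D1:**
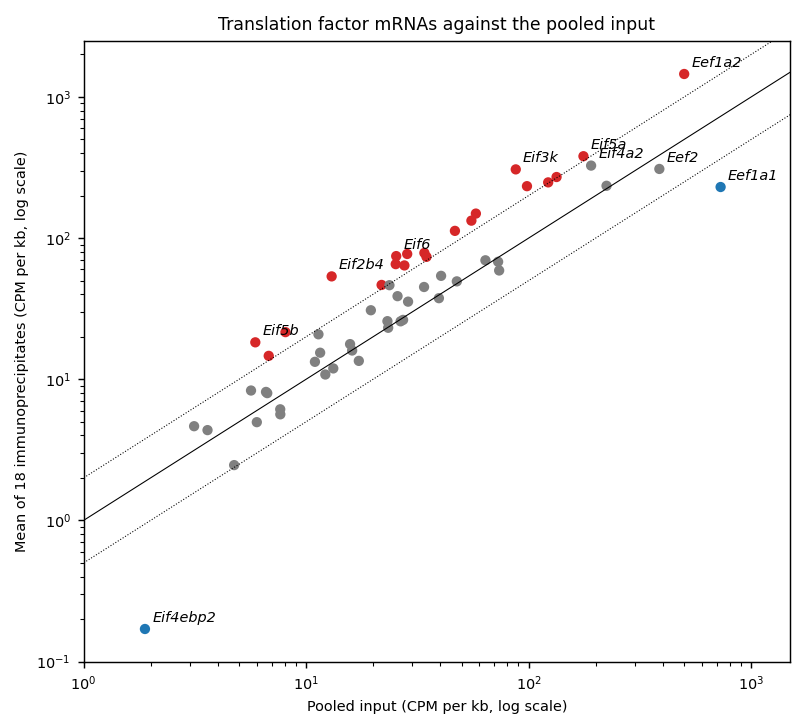
Levels of the 57 factor genes with at least 100 input counts and a transcript length, in the pooled input (x axis) and as the mean of the 18 immunoprecipitates (y axis), both in CPM per kb on log scales. The solid line marks equal levels and the dotted lines 2-fold differences. The 20 enriched genes are red, the 2 depleted ones (Eef1a1 and Eif4ebp2) blue and the others grey.

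At the other end stood Eif4ebp2, which encodes the 4E-BP abundant in brain, a repressor that binds eIF4E. It ranged from 0 to 3.33 CPM with a median of 0.69 in the immunoprecipitates, against 10.9 CPM in the input (9.46 to 12.5), a log2 ratio of -3.47. All 18 libraries lay below the input. The depleted gene besides Eif4ebp2 and Eef1a1 was Eef1akmt4, which had 16 counts in the input and at most 0.532 CPM in any immunoprecipitate. Eif4e3, a cap-binding relative of eIF4E, and Eif4enif1, the eIF4E transporter, were also below the input in all 18 libraries but by less than 2-fold, with log2 ratios of -0.95 and -0.44. The 2 other 4E-BP genes were low throughout, Eif4ebp1 at 3.21 ± 0.93 CPM and Eif4ebp3 at 7.51 ± 1.10 CPM, and both lay above the input in all 18 libraries, by log2 ratios of 1.04 and 0.89. For Eif4ebp1 the input rested on 29 counts (1.57 CPM, 1.05 to 2.25). Its lowest immunoprecipitate, at 2.08 CPM, lay inside that interval.

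To ask whether the factors are rhythmic, JTK_Cycle, a rank test against cosine curves with periods of 20, 24 and 28 h, was run on all genes. With adjustment over the 15572 genes it called 6 genes (0.0385%) and none of the 63 factors, of which Eif2s3x came closest (adjusted p = 0.0814, JTK_Cycle with Benjamini-Hochberg adjustment). With adjustment within the gene alone, 21 of the 63 factors (33.3%) passed 0.05, against 15.9% of all genes. A 24-h cosine curve fitted to the counts (edgeR quasi-likelihood test, false discovery rate of 0.05, as for all adjusted p-values that follow) called 9 factors (14.3%), against 6.24% of all genes. A test for any difference among the 6 time points called 10 factors (15.9%), against 6.74%. Of the 63 factors, 40 passed none of the tests adjusted over all genes, the pairs below included. Among these 40, Eef1a1, Eef1e1 and Eef2k passed JTK_Cycle adjusted within the gene.

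The 9 factors with a fitted cosine peaked in opposite phases. Eef1b2, Eif1ad, Eif1b, Eif2b4, Eif2s3x, Eif3k and Eif4a2 peaked in the light, with fitted peaks from ZT6.56 for Eif4a2 to ZT8.42 for Eif1ad. Eif4a1 and Eif3a peaked in the dark, at ZT19.3 and ZT19.4. The largest amplitudes were those of Eif4a1 and Eef1b2, each 0.38 on the log2 scale (adjusted p = 0.0373 and 0.0391). These calls changed with single libraries. The cosine fit called no factor without any one of ZT0 replicate 2, ZT4 replicates 2 and 3, ZT8 replicates 2 and 3, ZT12 replicate 1, ZT16 replicates 1 and 2 or ZT20 replicate 1, and it called 2 without ZT0 replicate 3 and 22 without ZT20 replicate 3. The time point test called none without ZT0 replicate 1 or 3, ZT8 replicate 2 or 3 or ZT16 replicate 1, 1 without ZT4 replicate 2, 6 without ZT4 replicate 3, 4 without ZT16 replicate 2, 18 without ZT16 replicate 3 and 22 without ZT8 replicate 1. With the oligodendrocyte marker level as a covariate both called no factor, and their calls over all genes went from 972 to 2 and from 1050 to 0. The numbers of all genes called without single libraries are not given here.

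Most calls came from pairs of time points. From ZT0 to ZT8, 22 of the 63 factors changed, 11 upward and 11 downward (17.5% each, against 8.95% and 9.02% of all genes). The 2 groups of libraries did not overlap for 34 factors (54.0%), against 34.6% of all genes. The median log2 change of the factors was -0.07, against -0.003 for all genes, and the calls were of opposite sign within the list. Of the 78 ribosomal protein genes tested, which are regulated with several of the factors through their 5′ ends, 45 were up and 1 was down. The rest did not pass, and the median change was 0.59. Their median deviation from each gene's own mean differed among the ZT8 libraries. It was 0.09 in replicate 1, 0.63 in replicate 2 and 0.37 in replicate 3 (log2 scale). The factors are described below in the order in which they act, and differences between roles were not tested.

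**Figure D2:**
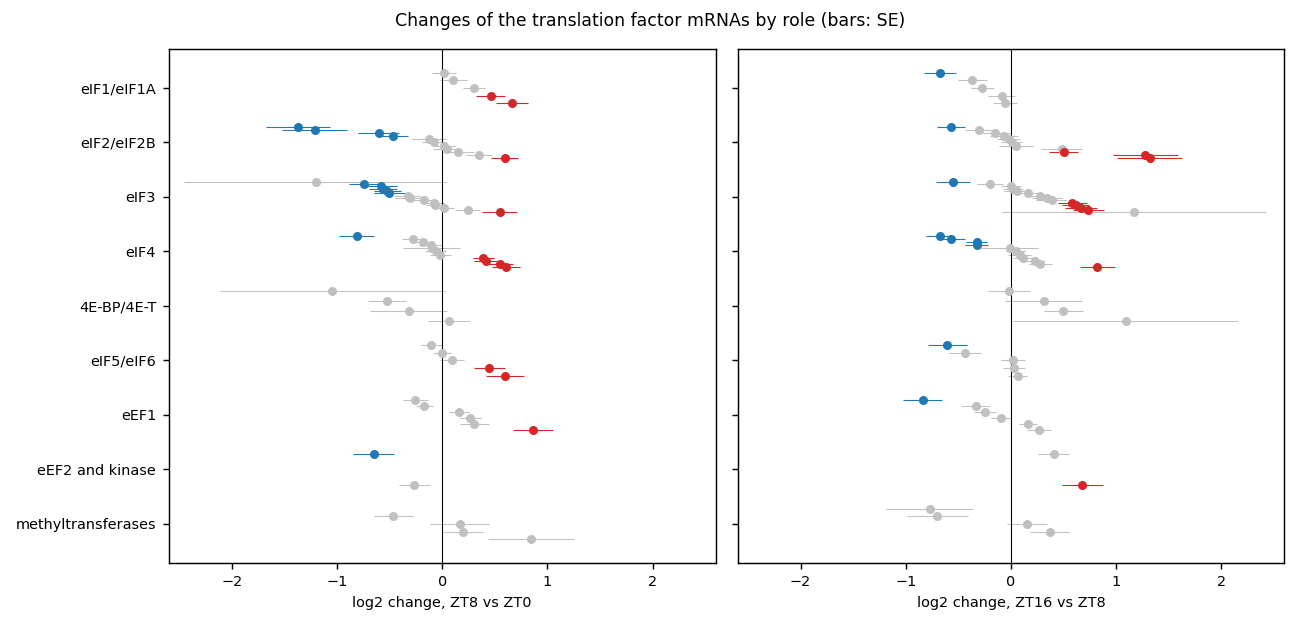
Log2 change of the factor mRNAs between ZT8 and ZT0 (left) and between ZT16 and ZT8 (right), 1 point per gene with its SE, grouped by role. Genes called higher are red, genes called lower blue and the others grey. Of the 63 factors 62 are drawn, since Eef1akmt4-ece2 lies outside the axis. The 2 pairs share the ZT8 libraries, so the mirror image between the panels is partly built in.

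Among the 5 genes of the eIF1 group 2 rose and none fell. Eif1b, a close copy of the start-codon factor Eif1, was at 195, 232 and 181 CPM at ZT0 and at 249, 383 and 317 CPM at ZT8. All 3 ZT8 libraries lay above all 3 of ZT0, and the log2 change was 0.66 ± 0.15 (SE, adjusted p = 0.0087). Eif1ad, an eIF1A-domain protein, changed by 0.46 ± 0.14 (adjusted p = 0.0271). Eif1 itself had a change of 0.30 ± 0.11 that did not pass (adjusted p = 0.055).

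The 11 tested genes with Eif2 symbols hold the subunits of eIF2 and eIF2B and also Eif2a and Eif2d. Of these 11 genes 1 rose and 4 fell. Eif2s3x, the X-linked gene of the γ subunit of eIF2, which binds the initiator tRNA, was at 100, 113 and 116 CPM at ZT0 and at 135, 199 and 155 CPM at ZT8 without overlap (log2 change, 0.59 ± 0.13, adjusted p = 0.00755). Its Y-linked partner Eif2s3y did not pass (0.15 ± 0.14, adjusted p = 0.499). The difference between these 2 changes was not tested.

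The gene of the α subunit of eIF2, whose phosphorylation by stress kinases limits initiation, went the other way. Eif2s1 (chromosome 12, 78862072 to 78887010) was at 25.3, 29.8 and 30.8 CPM at ZT0 and at 18.2, 4.58 and 10.4 CPM at ZT8. The groups did not overlap, and the log2 change of -1.37 ± 0.31 (adjusted p = 0.00803) had the largest size among the called factors. Eif2b2, the β subunit of eIF2B, was at 44.2, 29.8 and 37.3 CPM at ZT0 and at 25, 9.37 and 13.4 CPM at ZT8, a change of -1.21 ± 0.31 (adjusted p = 0.0122). For both genes ZT8 replicate 2 was the lowest of the 18 libraries. Eif2b1, the α subunit of eIF2B, and Eif2d, an alternative carrier of initiator tRNA, fell by smaller amounts (-0.60 ± 0.19 and -0.46 ± 0.14). The remaining 6 genes, Eif2s2, the catalytic subunit Eif2b5 and Eif2b4 among them, did not pass.

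Of the 14 eIF3 genes 5 fell, 1 rose and 8 did not pass, with a group median of -0.32 that was negative under all 4 scalings tried. Eif3f, a subunit of the MPN-domain pair, was at 116, 112 and 113 CPM at ZT0 and at 80.6, 62.3 and 58.5 CPM at ZT8. The log2 change was -0.74 ± 0.15 (adjusted p = 0.00593), and it is one of the 4 calls that remained without ZT8 replicate 2. Its partner Eif3h was at 103, 93.2 and 112 CPM at ZT0 and at 84.8, 53.5 and 68.0 CPM at ZT8, a change of -0.57 ± 0.14. The scaffold subunits Eif3a and Eif3c and the peripheral subunit Eif3l also fell, by changes of -0.50 to -0.58. The exception was Eif3k, at 230, 255 and 236 CPM at ZT0 and at 289, 400 and 350 CPM at ZT8 (0.55 ± 0.16, adjusted p = 0.0275). Eif3k and Eif3l form a pair at the edge of the complex and moved in opposite directions.

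Of the 11 genes of the eIF4 group 4 rose and 1 fell, and the helicase eIF4A was split between its copies. Eif4a2 (chromosome 16, 23107468 to 23114132), the copy prominent in neurons, was at 720, 852 and 767 CPM at ZT0 and at 953, 1477 and 1088 CPM at ZT8. Eif4a1 (chromosome 11, 69666936 to 69672423), the copy of growing cells, was at 132, 124 and 128 CPM at ZT0 and at 90.1, 60.0 and 65.7 CPM at ZT8. Neither gene had overlapping groups. The log2 changes were 0.61 ± 0.13 for Eif4a2 (adjusted p = 0.00746) and -0.81 ± 0.16 for Eif4a1 (adjusted p = 0.00593).

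Per kb, Eif4a2 mRNA was 4.00 ± 0.46 times as abundant as Eif4a1 mRNA at ZT0 (SD, n = 3, as for the next values). It was 7.82 ± 1.96 times at ZT4 and 11.3 ± 4.62 times at ZT8. After lights off the ratio was 5.32 ± 1.16 (ZT12), 3.96 ± 1.31 (ZT16) and 4.76 ± 0.96 (ZT20), and it was 2.59 in the input. The 3 ZT8 ratios ran from 6.93 to 16.1, above all 3 at ZT0, which ran from 3.58 to 4.50. This ratio does not depend on the scaling of the libraries.

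The other eIF4 genes that rose were Eif4g2, Eif4b and Eif4h. Eif4g2 encodes a relative of eIF4G that lacks the binding site for eIF4E, and was at 462, 524 and 492 CPM at ZT0 and at 577, 881 and 667 CPM at ZT8 (0.54 ± 0.13, adjusted p = 0.00986). The helicase cofactors Eif4b and Eif4h changed by 0.39 ± 0.10 and 0.42 ± 0.11. The main scaffold genes Eif4g1 and Eif4g3 (-0.18 ± 0.09 and -0.06 ± 0.10) and the cap-binding Eif4e (-0.02 ± 0.10) did not pass, and neither did the 3 4E-BP genes or Eif4enif1.

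The upstream sequences of the helicase pair are printed because the pair diverged, and members that changed together were searched for short motifs. RefSeq (GRCm38.p6) gave at least 1 start for 52 of the 69 genes, with 66 starts in all. The 250 bases before each start were searched on both strands for the E-box CACGTG, the D-box TTATGTAA, the cAMP response element TGACGTCA, the C/EBP-ATF element TGATGCAA, the ETS site CCGGAAGT, the CCAAT box and the TATA box TATAAA. A gene counted as holding a motif if any of its windows did. For some genes, Eif5a2 among them, a window with an E-box lay within the annotated span of the gene. An E-box lay in a window of 13 of the 49 tested factors with a start (26.5%), against 9.63% of the 11803 tested genes with one. It was found in 4 of the 10 such factors that rose (Eif1b, Eif3k, Eif4h and Eif5a2) and in 3 of the 10 that fell (Eif3f, Eif4a1 and Eef2), so it was present in both directions. The TATA box was found in none of the 10 that rose and in 3 of the 10 that fell (Eif2s1, Eif3f and Eef2), against 8.12% of tested genes, and the CCAAT box in 2 and 4, against 40.2%. The ETS site was found in 1 of each. These counts by direction were not tested. The D-box, the cAMP element and the C/EBP-ATF element were found in none of the 52. In the lines below, all on the strand of the gene, capitals mark any of these motifs, and the Eif4a2 window holds none.
Eif4a1, chr11:69672424-69672673, minus strand: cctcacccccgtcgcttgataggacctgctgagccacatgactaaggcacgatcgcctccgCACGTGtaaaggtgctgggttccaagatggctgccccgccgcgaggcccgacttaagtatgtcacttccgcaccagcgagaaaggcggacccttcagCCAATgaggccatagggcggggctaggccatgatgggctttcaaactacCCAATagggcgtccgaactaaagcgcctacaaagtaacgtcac
Eif4a2, chr16:23107218-23107467, plus strand: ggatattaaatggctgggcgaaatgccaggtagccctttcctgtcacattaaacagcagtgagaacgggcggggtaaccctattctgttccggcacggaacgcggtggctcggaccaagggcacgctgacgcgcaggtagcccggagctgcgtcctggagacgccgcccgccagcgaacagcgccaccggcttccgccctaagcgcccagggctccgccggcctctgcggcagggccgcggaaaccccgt

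The E-box itself is shown for 2 factors that rose and 2 that fell, with the E-box in capitals and 15 bases on either side, so that the flanks can be compared. Its first base lay 24, 44, 43 and 68 bases before the start in Eif1b, Eif3k, Eef2 and Eif3f. A match of letters is a description and not a site of binding, and binding was not measured.
Eif1b, chr9:120492567-120492602, plus strand: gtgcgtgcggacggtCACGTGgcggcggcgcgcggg
Eif3k, chr7:28981912-28981947, minus strand: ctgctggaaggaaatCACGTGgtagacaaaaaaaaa
Eef2, chr10:81176573-81176608, plus strand: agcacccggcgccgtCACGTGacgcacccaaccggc
Eif3f, chr7:108934332-108934367, plus strand: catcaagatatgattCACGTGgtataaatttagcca

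Of the 5 genes of eIF5, eIF5A, eIF5B and eIF6, 2 rose. Eif5b was at 114, 130 and 134 CPM at ZT0 and at 167, 212 and 184 CPM at ZT8, without overlap (0.60 ± 0.18, adjusted p = 0.0291). Eif5a2, the less abundant copy of the hypusine-bearing factor eIF5A, changed by 0.45 ± 0.15 (adjusted p = 0.0436). The abundant copy Eif5a was at 517, 564 and 498 CPM at ZT0 and at 551, 465 and 540 CPM at ZT8, with overlapping groups and a change of -0.004 ± 0.09. Eif5 and Eif6 did not pass.

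Among elongation factors, the exchange factor subunit Eef1b2 (chromosome 1, 63176831 to 63180486) was at 218, 245 and 222 CPM at ZT0 and at 320, 518 and 387 CPM at ZT8. The lowest ZT8 library lay above the highest of ZT0, and the log2 change of 0.86 ± 0.19 (adjusted p = 0.00746) was the highest of any factor that rose. The partner subunits Eef1d and Eef1g (0.16 ± 0.10 and 0.26 ± 0.11) and the carriers Eef1a1 and Eef1a2 (-0.17 ± 0.08 and -0.25 ± 0.12) did not pass. The Eef1a2 to Eef1a1 ratio stayed between 5.36 and 7.47 over all 18 libraries, and its means at the 6 time points, from 5.88 to 6.74, lay within the spread of the libraries.

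Eef2 (chromosome 10, 81176631 to 81182509), the translocase, went against Eef1b2. It was at 1183, 1033 and 1063 CPM at ZT0 and at 972, 457 and 633 CPM at ZT8, so that ZT8 replicate 1 lay just under the ZT0 libraries and replicate 2 far below. The change was -0.65 ± 0.20 (adjusted p = 0.0275). Eef2k, whose product phosphorylates and arrests eEF2, did not pass (-0.27 ± 0.15, adjusted p = 0.224), and none of the 5 methyltransferase genes tested did.

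**Figure D3:**
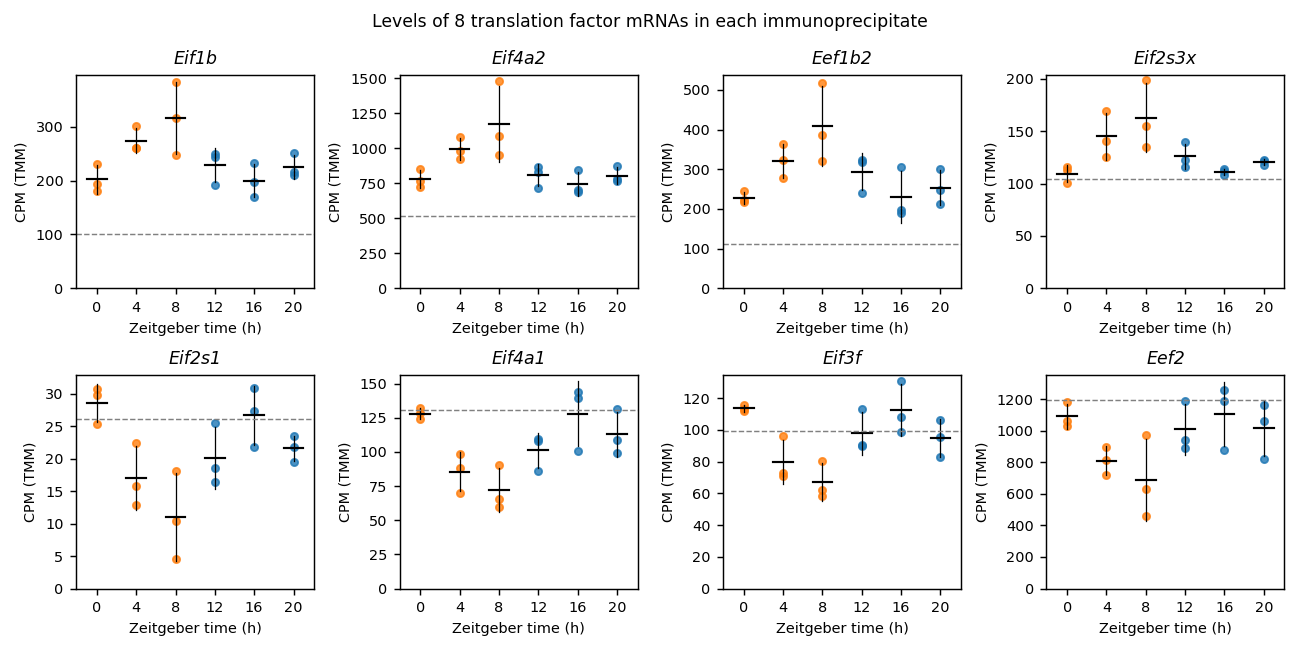
CPM of 8 factor mRNAs in each of the 18 immunoprecipitates by Zeitgeber time, orange for ZT0 to ZT8 and blue for ZT12 to ZT20, with the mean (horizontal bar) and SD (vertical bar) of 3 libraries and the pooled input as a dashed line. The upper 4 genes have their highest mean at ZT8 and the lower 4 their lowest, and the 3 ZT8 libraries of each gene are spread more widely than those of ZT0.

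The TOP mRNAs, a class whose 5′ pyrimidine tract lets mTOR control translation and which takes in nearly all ribosomal protein mRNAs, did not move as 1 group. Of the 9 factors on the textbook list used here, 2 rose (Eef1b2 and Eif4b), 3 fell (Eef2, Eif3f and Eif3h) and 4 did not pass (Eef1a1, Eef1d, Eef1g and Eif3e), with a median of -0.17. The ribosomal protein genes stood at 45 up of 78 in the same comparison.

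The time course around ZT8 was then followed. The highest of the 6 time point means was at ZT8 for all 11 factors that rose and the lowest at ZT8 for all 11 that fell. The ZT4 mean lay between those of ZT0 and ZT8 for all 22. These 22 were chosen by a difference between ZT8 and ZT0, so such counts follow in part from the choice. They were not taken over all genes. ZT4 and ZT16 were outside that comparison, though their libraries shared its scaling and its estimate of the spread. All 11 of the first set were higher at ZT4 than at ZT16 (median log2 difference, 0.31) and all 11 of the second set lower (-0.45). For all genes called between ZT8 and ZT0 the same sign was seen for 96.5% of those that rose and 97.1% of those that fell, so the factors were like the rest of the changed genes in this.

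**Figure D4:**
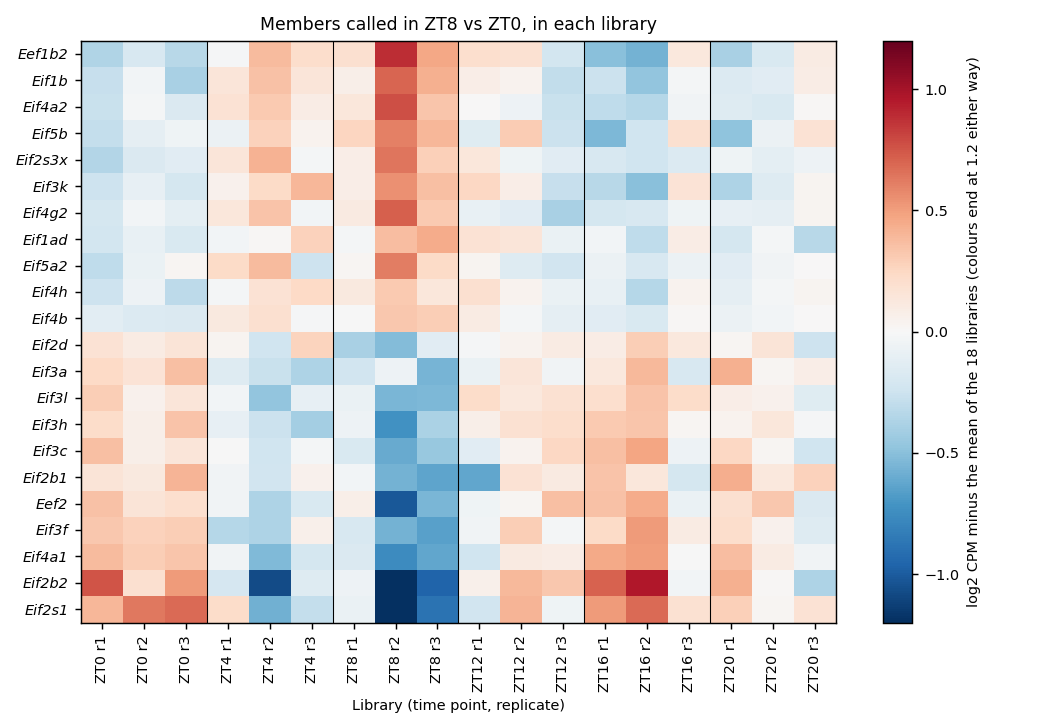
Log2 CPM of the 22 factors called between ZT8 and ZT0 (rows, sorted by their log2 change) in each of the 18 immunoprecipitates (columns, r for replicate), minus the mean of the row. ZT8 replicate 2 has the strongest colours, ZT8 replicate 1 is near the mean, and ZT16 replicate 3 is pale where the other 2 ZT16 libraries show the reverse of ZT8.

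From ZT8 to ZT16, 9 factors rose and 9 fell (14.3% each, against 9.11% and 7.8% of all genes), and all 18 are among the 22 above, each with the opposite sign. The 2 comparisons share the ZT8 libraries, so this return is not independent of the first change. The groups did not overlap for 25 factors (39.7%), against 27.2% of all genes. Eif4a1 was at 139, 144 and 101 CPM at ZT16 (log2 change, 0.82 ± 0.16, adjusted p = 0.00699) and Eif4a2 at 701, 686 and 844 CPM (-0.67 ± 0.13, adjusted p = 0.00699). In both genes replicate 3 was nearest to the ZT8 libraries.

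Eif2b2 rose the most, to 42.6, 51.0 and 25.6 CPM (1.32 ± 0.31), and Eif2s1 was back at 27.4, 30.8 and 21.8 CPM (1.28 ± 0.31). Eef1b2 was at 197, 189 and 306 CPM (-0.84 ± 0.19, adjusted p = 0.00887) and Eef2 at 1186, 1260 and 879 CPM (0.68 ± 0.20, adjusted p = 0.0237). For Eef2 the ZT16 and ZT8 libraries overlapped. The 4 factors that were called against ZT0 but not here were Eif1ad, Eif2b1, Eif3a and Eif5a2.

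Between ZT20 and ZT8, which lie 12 h apart, no factor and no gene passed at a false discovery rate of 0.05 (0% higher and 0% lower, edgeR). At an unadjusted p under 0.05 (edgeR) there were 25 of the 63 factors, 12 higher and 13 lower at ZT20. Of all 15572 genes, 3474 passed at that level. The lowest adjusted p of a factor was 0.0635 (edgeR), for Eif4a2. DESeq2 called 15 factors here, 6 higher and 9 lower, among 1114 of the 15572 genes. With edgeR, leaving out ZT8 replicate 1 gave 22 factors, leaving out ZT16 replicate 3 gave 5 and leaving out ZT20 replicate 3 gave 3. The numbers of all genes called in those fits are not given here.

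These counts rest on few libraries. The median deviation from the gene's own mean over the 11 factors that rose was 0.63 in ZT8 replicate 2, 0.34 in replicate 3 and 0.08 in replicate 1 (log2 scale), and over the 11 that fell it was -0.59, -0.54 and -0.08. Replicate 2 was the highest of the 18 libraries for 10 of the 11 that rose and the lowest for 8 of the 11 that fell. Without it, 4 factors remained called between ZT8 and ZT0, Eif3f, Eif4a1, Eif2s1 and Eif3a, all lower, and none between ZT16 and ZT8. Leaving out ZT8 replicate 3 or ZT0 replicate 3 gave 11 calls between ZT8 and ZT0, and leaving out ZT0 replicate 1 gave 8. Between ZT16 and ZT8, none was called without ZT16 replicate 2 and 29 were called without ZT8 replicate 1. Without ZT16 replicate 3 JTK_Cycle called 5 factors. How many of all genes were called in these leave-out fits is not given here. None of the 38 changes refitted for single genes (20 of the called genes between ZT8 and ZT0, 18 between ZT16 and ZT8) turned its sign in any of these fits, and the other named factors were not refitted singly. These genes were chosen as called, most with groups that did not overlap. Leaving out libraries could hardly turn such a sign, so this is no measure of stability. Without ZT8 replicate 2, 34 of the 38 changes no longer passed.

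Markers of cell types moved in the same comparisons. Of the 7 cholinergic markers 4 fell from ZT0 to ZT8 (median log2 change, -0.64) and 5 rose from ZT8 to ZT16 (0.59), while their summed level ran from 4403 to 4842 CPM at ZT0, from 4224 to 4735 CPM at ZT8 and from 4690 to 5067 CPM at ZT16. Fewer cells of a type and less RNA per cell cannot be told apart in such bulk samples. Of the 7 oligodendrocyte markers, none of them at 0 in all immunoprecipitates, 2 fell and 2 rose in the same pairs. Their summed level ran from 1836 to 2237 CPM at ZT0, from 1728 to 2013 CPM at ZT8 and from 1960 to 2917 CPM at ZT16, where replicate 3 was the highest library. With the oligodendrocyte marker level as a covariate, 17 factors (9 up, 8 down) were still called between ZT8 and ZT0. The number of all genes called in that pair went from 2798 to 1905 of 15572. Between ZT16 and ZT8, 2 factors (Eif3f and Eif4a1) were called, and the number of all genes called went from 2633 to 339. The log2 changes between ZT16 and ZT8 stayed close to those without the covariate for Eif4a1 (0.82 in both fits), Eif3c (0.67 in both) and Eif2b2 (1.25 against 1.32). They were -0.91 against -0.84 for Eef1b2, with a larger SE (0.25 against 0.19), and -0.58 against -0.67 for Eif4a2. The change of Eif2s3x moved more, to -0.40 from -0.57. Of the 4 inhibitory neuron markers 2 fell from ZT0 to ZT8 (median, -0.44) and none passed from ZT8 to ZT16 (0.31). Of the 5 microglia markers tested 1 rose and then fell (medians, 0.44 and -0.40), and no astrocyte, excitatory neuron, endothelial or erythrocyte marker passed in either pair. The part of these other markers in the results was not tested.

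The wider pathway was given by 42 regulators, termination and rescue factors listed by role. From ZT0 to ZT8, 6 rose and 6 fell (28.6% in all, where 8.95% of all genes rose and 9.02% fell). From ZT8 to ZT16, 10 rose and 4 fell (33.3% in all, where 9.11% of all genes rose and 7.8% fell). Those that fell at ZT8 included Mtor, the kinase that drives 4E-BP and TOP control, from 44.8 ± 9.03 to 21.6 ± 8.75 CPM (log2 change, -1.05 ± 0.24, adjusted p = 0.00883), its activator Rheb (-0.49 ± 0.11) and its inhibitor Tsc2 (-0.79 ± 0.22). Pabpc1, the poly(A)-binding protein that touches eIF4G, fell from 45.7 ± 3.30 to 25.7 ± 8.23 CPM, and the initiation helicase Dhx29 from 21.5 ± 1.27 to 10.7 ± 2.64 CPM. Those that rose included Atf4, the transcription factor made when eIF2 is phosphorylated, from 199.6 ± 36.9 to 319 ± 34.6 CPM (0.70 ± 0.17, adjusted p = 0.00961), Larp1, which binds TOP mRNAs, from 318 ± 7.59 to 387 ± 9.85 CPM, and the ribosome rescue pair Hbs1l and Pelo (0.46 ± 0.12 and 0.47 ± 0.13). The remaining calls were Ppp1r15b, a phosphatase subunit that restores eIF2 (0.48 ± 0.14), and Mcts1, a partner in reinitiation (0.66 ± 0.21), both higher, and the GTPase Gtpbp1, lower (-1.02 ± 0.31).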

How the data were processed

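Paired-end reads of Illumina Stranded mRNA libraries were mapped to mm10 by the authors using STAR 2.7.5, per the submitters' processing notes. RSEM then gave expected counts for each gene, which the authors deposited without normalization. Reads that fit several genes are divided by a model, so near-identical copies are less certain.

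Expected counts were rounded and genes kept with filterByExpr. Libraries were scaled by TMM in edgeR 4.0.16 (R 4.3.3), and log2 CPM carried a prior count of 2. JTK_Cycle used 18 templates, with Bonferroni adjustment within and Benjamini-Hochberg adjustment across genes. The cosinor, the time point test and the pairs were edgeR quasi-likelihood tests on all 18 immunoprecipitates, adjusted over 15572 genes. The scripts were tested on simulated data. Lengths came from GENCODE M21 and coordinates and promoters from RefSeq, matched by symbol.

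The labels call the replicates biological, and one cord gave one library. No 2 libraries of a group agreed within counting noise. The factor genes and all lists were chosen with earlier results of these data known. Genes were named by lowest adjusted p (up to 10 per direction and test), by the 5 highest and 5 lowest input ratios and from a fixed list. Eif2b1, Eif2s2, Eif3b, Eif3d, Eif3g, Eif3i, Eif3m, Eif4ebp3, the untested members and near-copies, and the pathway genes were named after their values were seen. Alternatives were DESeq2 1.42.0, other scalings and filters, a replicate block, an oligodendrocyte covariate and left-out libraries. Poisson intervals (95%) cover counting error only.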

Additional observations from a re-analysis of the deposited data

How the results depend on the processing

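With 3 libraries per time point, single libraries moved most counts. Under the 3 other scalings the counts over time stayed within 1.5 times and the median changes of the factors kept their sign, with -0.10 in place of -0.07 between ZT8 and ZT0 by library totals. Same-numbered libraries did not deviate together (45 pairs, r from -0.151 to 0.176, 4 above 0.1). The replicate block, a fit with the number as a term, moved no count by over 1.5 times and gave 24 factors between ZT8 and ZT0. The number of all genes called with the block is not given here. The filter of at least 1 count gave 19 factors by cosinor, 23 by the time point test and 20 between ZT20 and ZT8, and the filter of 10 counts gave 1 in the last. By cosinor, by the time point test and between ZT20 and ZT8, DESeq2 gave 19, 22 and 15 factors. Over all 15572 genes it gave 2247, 2502 and 1114. With the oligodendrocyte covariate cosinor and time point test gave 0, and ZT16 against ZT8 gave 2. The calls over all genes went from 972 to 2, from 1050 to 0 and from 2633 to 339. Of the 38 changes refitted for single genes, 19 no longer passed with this covariate. JTK_Cycle adjusted within the gene gave 21. Scaling by library totals gave 9 enriched factors, with median log2 ratios of 0.12 for the factors and -0.42 for all genes. Leaving out 1 library or 1 replicate number gave 0 to 22 factors by cosinor, by the time point test and between ZT20 and ZT8, 0 to 29 in each of the other pairs, 0 to 5 by JTK_Cycle and 19 to 21 enriched. Without all libraries of replicate 2, or of replicate 3, no factor was called between ZT8 and ZT0. The cause was not tested. None of the 38 single-gene changes refitted reversed, which was largely set by their choice as called genes. Of these, 34 no longer passed without ZT8 replicate 2. Depth limits Eif4ebp2, Eif3j2 and the methyltransferase genes other than Eef1akmt1 and Eef1aknmt, which were at 18.3 and 11.4 CPM.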
